A study of Homo sapiens with 20 samples.

Results

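Sterol and fatty acid synthesis genes were examined as a group of 29 genes, picked by symbol from the 39918 gene rows of a count table covering total RNA from HCT-116 cells. The group has 17 genes of the sterol branch, 8 of the fatty acid branch, and 4 that regulate both or carry sterols. All 29 were expressed above the filter on low counts, and the lowest count of any of them in any library was 137.

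HCT-116 is an established human colorectal cancer line, and the study followed its transcripts when the proteasome was inhibited in G2 cells. There were 20 libraries depleted of ribosomal RNA, 4 in each of 5 groups. One group was asynchronous and had no treatment. For G2, cells spent 16 h in 2 mM thymidine, which stalls DNA replication, and were then released for 7 h. Cells of the other 3 groups had the same synchronisation followed by 3 h with 20 µM MG132, with 100 nM bortezomib, or with 20 µM MG132 and 50 µg/ml α-amanitin. MG132 and bortezomib are proteasome inhibitors, and α-amanitin is a mushroom toxin that blocks RNA polymerase II. G2 was harvested at the 0 h point, before any drug, and no 3 h vehicle group was analysed here, so a drug group and G2 also differ by 3 h of cell cycle time, and the contributions of drug and time cannot be told apart. All groups are the same line, and nothing in the labels says that replicates were separate cultures, so p-values reflect only sample-to-sample spread, part or all of which may be technical.

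Cells make cholesterol from acetyl-CoA through mevalonate, squalene and lanosterol, and make fatty acids from the same acetyl-CoA through malonyl-CoA. Transcription of both branches is driven by the sterol regulatory element-binding proteins, SREBP-1 (gene SREBF1) and SREBP-2 (gene SREBF2). When membranes hold enough sterol, the protein INSIG1 keeps these factors in the endoplasmic reticulum, and when sterol falls they are cut, enter the nucleus and act together with NF-Y, which binds CCAAT boxes, and with Sp1, which binds GC boxes. SREBP-2 is known mainly for the sterol genes and SREBP-1 mainly for the fatty acid genes, with INSIG1 and SCD among the most responsive targets.

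Library totals ran from 26797395 to 39710457 counts. Levels are given as CPM, the usual scaled share of a library, here with TMM-adjusted library sizes. Epithelial markers summed to 3223 to 5981 CPM in every library, with 7 of 10 above the filter and VIL1, CDX1 and LGALS4 at or near 0, while fibroblast markers summed to 3.23 to 13.0 CPM and leukocyte markers to 1.73 to 6.96. In 4 libraries the level of a gene depended on its GC content by more than 0.3 log2 units per 10 percentage points, namely asynchronous replicate 3 (0.50), G2 replicate 2 (0.36), MG132 replicate 2 (-0.41) and MG132 replicate 4 (0.74). Of 7 genes listed as checks of the treatments, HSPA1B, HSPA6, DNAJB1 and JUN were called higher with MG132 than in G2, and these and MYC were called lower once α-amanitin was added. The letter in the sample code, whose meaning the labels do not give, takes 7 values that are not balanced over the groups.

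Replicates of the same group were also compared in the synthesis genes themselves. Bortezomib replicate 2 had the highest level of its group for 29 of 29 members, against 27.9% of all genes tested, and 19 of 29 lay more than 1 log2 unit above the mean of the other 3 replicates, against 2.78% of all genes. The median excess of the members there was 1.28 log2 units, from 0.15 for FADS2 to 2.64 for INSIG1. That library is not GC-skewed (slope -0.07), and it is the single sample with its code letter, so library, letter and cells cannot be told apart. Bortezomib replicate 4 is likewise alone with its code letter, without such an excess. In MG132 replicate 2 the deviation of a member from its group followed GC content with Pearson's r = -0.80 (Spearman's rho = -0.77, over the 29 members of 1 library), and 9 members lay more than 1 log2 unit above the other replicates, against 8.94% of all genes. In MG132 replicate 4 the relation ran the other way (r = 0.82, rho = 0.80). There 8 of 29 members lay more than 1 unit below, against 28.9% of all genes, so the share of members was close to that of all genes. The 8 include IDI1 (-2.97), SC5D (-3.37) and ELOVL6 (-3.35). Such a relation was not confined to MG132. It had r = 0.79 in asynchronous replicate 3, r = 0.68 in G2 replicate 2 and r = -0.75 in asynchronous replicate 2, whose slope over all genes was -0.27. Asynchronous replicate 4 was the lowest of its group for 21 of 29 members, against 21.8% of all genes.

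**Figure D1:**
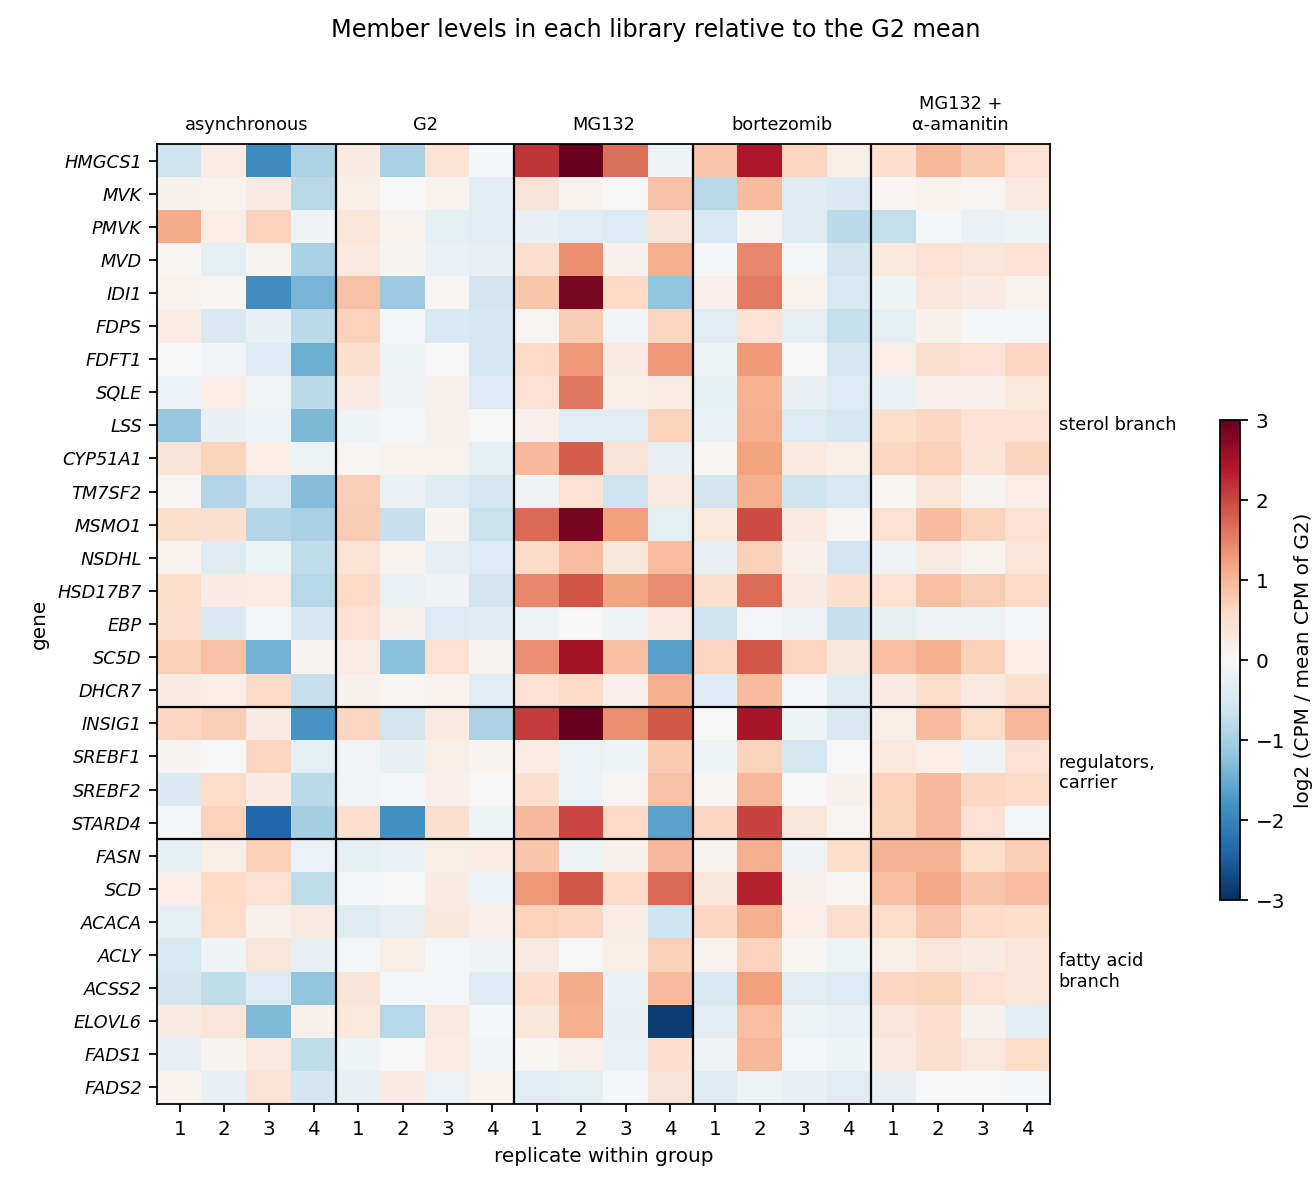
Each cell is 1 member (rows, ordered by branch) in 1 library (columns, 4 replicates per group), coloured by log2 of its CPM over the mean CPM of the 4 G2 libraries; colours stop at 3 log2 units on either side. The column of bortezomib replicate 2 is red for nearly every member, MG132 replicates 1 to 3 are red mainly for HMGCS1, IDI1, MSMO1, HSD17B7, SC5D, INSIG1 and SCD, and MG132 replicate 4 is blue for SC5D, STARD4, IDI1 and ELOVL6.

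Across the 5 groups together, 3 of the 29 members differed: HMGCS1 (edgeR quasi-likelihood test over all groups, adjusted p = 0.0118), HSD17B7 (adjusted p = 0.0126) and INSIG1 (adjusted p = 0.0351). Of all genes tested, 12% were called, so the share of members is close to the background. The sterol branch supplied 2 of the 3 calls, the regulators 1 and the fatty acid branch 0, where the lowest adjusted p belonged to ACSS2 (0.0619). MSMO1 (0.0883), NSDHL (0.0909) and SCD (0.0823) were also short of the threshold of 0.05. The count rests on bortezomib replicate 2, without which 10 members were called against 11.6% of all genes. It also rests on the GC-skewed libraries, without which 1 was called against 17.3% of all genes.

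HSD17B7 (ENSG00000132196.15, hg38 chromosome 1, 162790702 to 162812817, plus strand) encodes a reductase that acts on the keto group left when methyl groups are taken off the sterol ring. In asynchronous replicates 1 to 4 it was at 14.8, 12.3, 12.1 and 5.75 CPM, and in G2 at 15.7, 9.04, 9.63 and 7.09 CPM. With MG132 it was at 28.2, 38.5, 23.7 and 27.5 CPM, and with bortezomib at 14.4, 33.3, 12.3 and 14.6 CPM. With MG132 and α-amanitin it was at 14.1, 19.4, 17.4 and 15.4 CPM. Every MG132 library lay above every asynchronous, G2 and α-amanitin library, and bortezomib replicate 2 was the single library outside the MG132 group within its range.

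HMGCS1 (ENSG00000112972.15, chromosome 5, 43289395 to 43313512, minus strand) encodes the synthase that makes HMG-CoA, the precursor of mevalonate. It was at 60.3, 107.5, 25.1 and 48.0 CPM in asynchronous cells and at 111, 46.9, 123 and 88.7 CPM in G2. The MG132 replicates held 411, 1017, 289.8 and 83.0 CPM, and the bortezomib replicates 164, 497, 144 and 104 CPM. With α-amanitin added it was at 130.5, 184, 159 and 127 CPM. MG132 replicates 1 to 3 and bortezomib replicate 2 were the 4 highest libraries, while MG132 replicate 4 lay inside the G2 range.

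INSIG1 (ENSG00000186480.13, chromosome 7, 155297776 to 155310235, plus strand) encodes the sterol-dependent anchor of the SREBP complex, a protein that is itself degraded by the proteasome. Its levels were 59.5, 64.2, 45.1 and 11.3 CPM in asynchronous cells and 60.1, 26.4, 46.8 and 20.1 CPM in G2. They were 165, 413, 100.5 and 139 CPM with MG132 and 38.4, 211, 34.8 and 28.3 CPM with bortezomib. With MG132 and α-amanitin they were 43.2, 74.3, 56.1 and 76.2 CPM. The 4 MG132 libraries and bortezomib replicate 2 were all above 100 CPM and every other library was below.

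**Figure D2:**
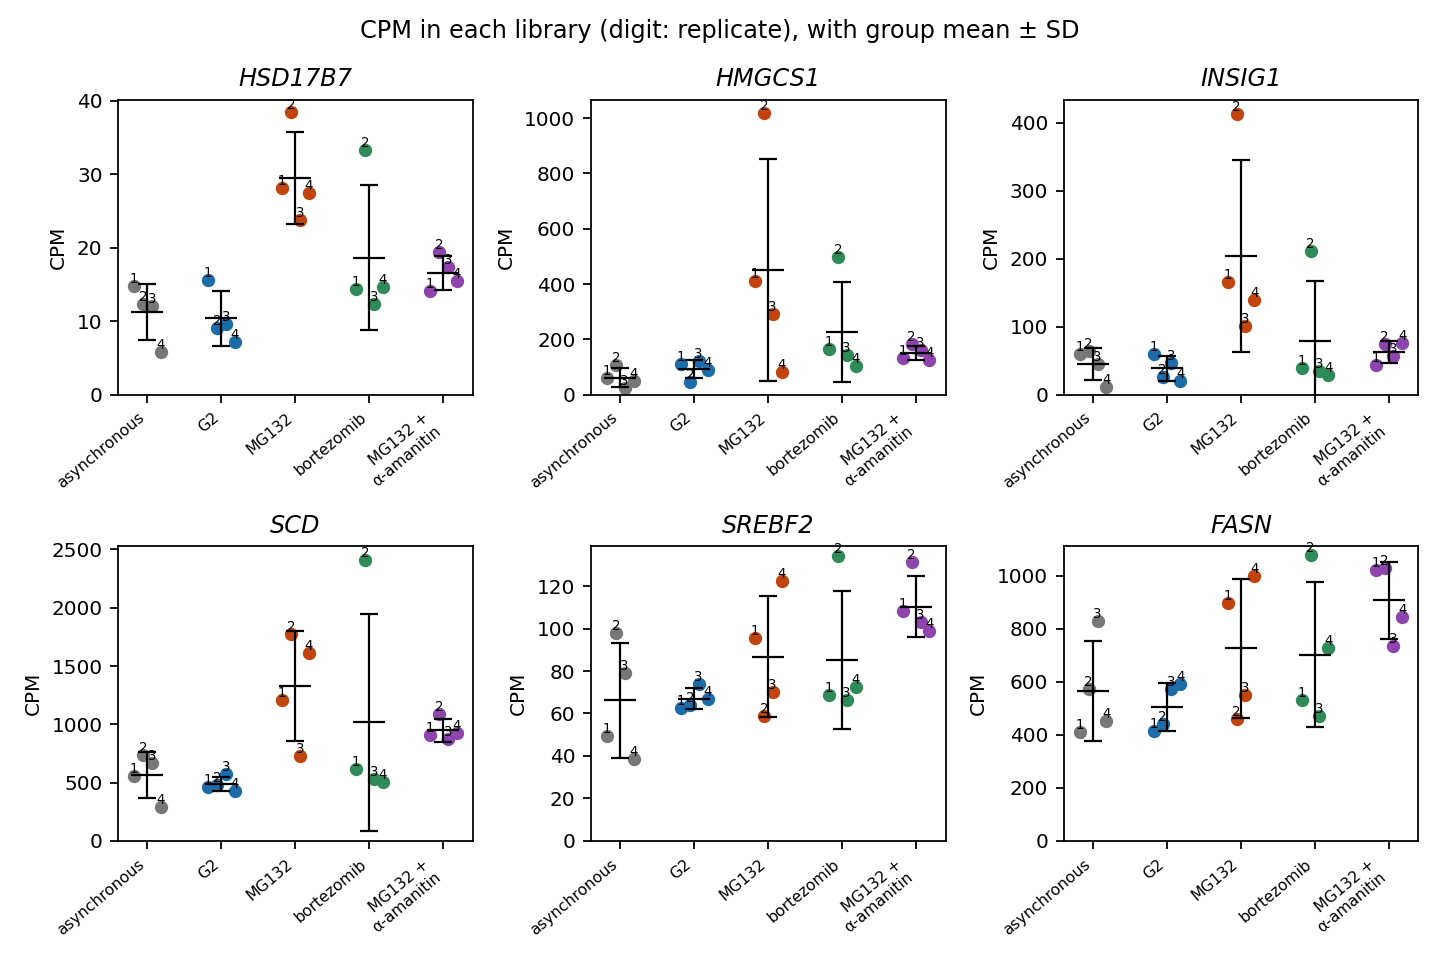
CPM of 6 members in each library, 1 panel per gene, with a digit for the replicate, a bar for the group mean and whiskers of 1 SD (n = 4 per group); each axis starts at 0, so a whisker that would run below 0 is not shown there. HSD17B7 lies between 23.7 and 38.5 CPM in the 4 MG132 libraries, and bortezomib replicate 2 is the top bortezomib point in every panel.

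The 250 bases before the RefSeq start site (GRCh38.p14) of these 3 genes and of SREBF2 are printed here, 5′ to 3′ on the strand of the gene, since the 3 genes differed among the groups and SREBF2 is the member whose window holds the SREBP motif searched for. The 4 were chosen after their values were seen. Capitals mark CCAAT boxes, which read ATTGG where they lie on the opposite strand, the E-box CACGTG and the SREBP motif TCACNCCAC.
HMGCS1, chr5:43313413-43313662, minus strand: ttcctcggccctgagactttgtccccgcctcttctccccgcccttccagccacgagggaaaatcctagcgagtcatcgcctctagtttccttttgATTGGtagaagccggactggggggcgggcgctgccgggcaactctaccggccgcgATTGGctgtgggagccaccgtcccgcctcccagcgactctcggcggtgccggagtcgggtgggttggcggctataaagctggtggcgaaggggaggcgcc
HSD17B7, chr1:162790452-162790701, plus strand: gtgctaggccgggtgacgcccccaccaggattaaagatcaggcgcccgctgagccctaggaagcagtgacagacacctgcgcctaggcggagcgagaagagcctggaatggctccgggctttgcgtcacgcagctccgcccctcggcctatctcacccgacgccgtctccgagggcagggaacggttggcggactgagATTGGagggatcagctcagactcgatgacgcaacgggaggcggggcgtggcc
INSIG1, chr7:155297628-155297877, plus strand: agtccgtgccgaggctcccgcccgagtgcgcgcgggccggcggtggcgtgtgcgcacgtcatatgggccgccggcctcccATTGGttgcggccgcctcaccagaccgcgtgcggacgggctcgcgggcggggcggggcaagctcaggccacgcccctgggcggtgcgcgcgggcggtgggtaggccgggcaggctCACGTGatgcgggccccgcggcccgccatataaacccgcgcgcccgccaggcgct
SREBF2, chr22:41832855-41833104, plus strand: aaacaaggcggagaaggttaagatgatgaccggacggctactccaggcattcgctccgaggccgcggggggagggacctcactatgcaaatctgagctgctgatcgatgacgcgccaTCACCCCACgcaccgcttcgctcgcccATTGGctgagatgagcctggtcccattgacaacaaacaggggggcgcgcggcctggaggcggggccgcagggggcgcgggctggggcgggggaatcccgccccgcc
The HMGCS1 window has CCAAT boxes that begin 155 and 100 bases before the start site, and the HSD17B7 window has 1 that begins at 52. INSIG1 has a CCAAT box at 170 and an E-box at 55, and SREBF2 has the SREBP motif at 133 and a CCAAT box at 106. A window was found for 26 of the 29 members, all but FDFT1, SQLE and FASN. Both strands were searched, and matches of different motifs were counted separately even where they overlap. A CCAAT box stood in 18 of 26 (69.2%), against 32.0% of the windows before all 35116 RefSeq start sites, and 11 of 26 (42.3%) had at least 2, against 9.53%. The sterol branch had one in 12 of 15 windows (80.0%), the fatty acid branch in 3 of 7 (42.9%) and the regulators in 3 of 4. The GC box GGGCGG was in 23 of 26 (88.5%, against 42.6%), CACGTG in 2 of 26 (7.69%, against 6.34%) and TCACNCCAC in 1 of 26 (3.85%, against 0.883%). The members are all expressed protein-coding genes with a single window each, while the background is every start site, with no filter for expression or kind of gene. Whether an excess is particular to these genes was not tested. These matches are letters in a window, not sites shown to be bound. Only exact matches to each pattern were counted, so sites that vary from it or lie outside the window would be missed.

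MG132 was compared with G2 to see how the genes stood after proteasome inhibition. HSD17B7 rose from 10.4 ± 3.69 to 29.5 ± 6.32 CPM (mean ± SD of 4 libraries; log2 fold change 1.51 with an SE of 0.326; adjusted p = 0.0163) and was the 1 member of 29 called, against 2.08% of all genes in either direction and 1.01% higher. Its 4 MG132 libraries did not overlap the G2 libraries. The same held for DHCR7, the last reductase of one route to cholesterol, for INSIG1 and for SCD, so 4 of 29 members were higher without overlap, against 2.07% of all genes. In bulk RNA, a change in the number of cells with a transcript and a change in its level per cell cannot be told apart.

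The members of the sterol branch had a median log2 fold change of 0.73 in this comparison, and 16 of 17 were above 0. The fatty acid branch had a median of 0.32 with 7 of 8 above 0, and all 29 members together had 0.60 with 27 above 0. The median of all genes was -0.03, and 46.4% of them were above 0. An unadjusted p under 0.05 in the higher direction was reached by 10 of the 17 sterol genes, 1 of the 4 regulators and 1 of the 8 fatty acid genes, 12 of 29 in all, against 4.13% of all genes. Without MG132 replicate 2, a GC-skewed library, these were 4 of 17, 1 of 4 and 2 of 8, and the sterol median was 0.46 with 15 of 17 above 0. The fatty acid median of that fit lay between ACACA (0.20) and ACLY (0.40), so the branch medians were closer together than with all libraries. The share of all genes with an unadjusted p under 0.05 is not given for that fit, so those counts have no background beside them. By adjusted p in edgeR, 0 members were called in that fit, against 1.52% of all genes. The difference between the branches was not tested.

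Among the steps up to squalene epoxide HMGCS1 stood furthest from G2, at 450 ± 402 against 92.4 ± 33.4 CPM (log2 fold change 2.29 with an SE of 0.603, adjusted p = 0.0536). IDI1, the isomerase that supplies the allylic isoprene unit, followed with 1.44 (adjusted p = 0.375), and its 4 MG132 libraries ran from 39.3 to 630 CPM. IDI1 was at 0.32 without MG132 replicate 2, under FDFT1 (0.79) and MVD (0.63). The mevalonate decarboxylase gene MVD had 0.86, squalene synthase FDFT1 0.94, squalene epoxidase SQLE 0.73, farnesyl diphosphate synthase FDPS 0.38 and mevalonate kinase MVK 0.38. PMVK, the kinase that follows MVK, was the lowest of the branch at -0.10, with 7.47, 7.08, 6.59 and 11.6 CPM under MG132 against 11.2, 9.49, 7.33 and 7.01 in G2. The PMVK libraries of the groups overlapped.

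Among the genes that make lanosterol and turn it into cholesterol, MSMO1, which oxidises the ring methyl groups, had a log2 fold change of 1.77 (SE 0.555, adjusted p = 0.123), at 145 ± 115 against 42.5 ± 21.7 CPM. The desaturase gene SC5D had 1.38 (adjusted p = 0.336), the lanosterol demethylase gene CYP51A1 0.93 (adjusted p = 0.202), and NSDHL, the dehydrogenase that works between MSMO1 and HSD17B7, 0.71 (adjusted p = 0.209). DHCR7 had 0.60 (adjusted p = 0.440). Without MG132 replicate 2, SC5D was at 0.67, CYP51A1 at 0.45 and, among the earlier steps, SQLE at 0.28. The lanosterol synthase gene LSS (0.10), the reductase gene TM7SF2 (0.06) and the isomerase gene EBP (0.01) were closest to no difference. LSS was at 57.1, 40.2, 41.1 and 82.0 CPM with MG132 and at 47.2, 49.5, 56.3 and 51.9 in G2, so its MG132 libraries lay on both sides of the G2 range.

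Of the regulators, INSIG1 had the highest fold change of the 29 members (2.42, SE 0.639, adjusted p = 0.0543), at 204 ± 141 against 38.3 ± 18.5 CPM. STARD4, a cytosolic sterol carrier, had 0.97 (adjusted p = 0.673), with 59.7, 124, 46.3 and 10.0 CPM under MG132 and 43.1, 8.76, 43.0 and 27.8 in G2, and 0.34 without MG132 replicate 2. The transcripts of the factors themselves were closer to G2, SREBF2 at 0.38 (adjusted p = 0.744) and SREBF1 at 0.22 (adjusted p = 0.881). SREBF1 held 79.0, 60.0, 62.5 and 116 CPM with MG132 and 64.0, 58.7, 77.2 and 72.0 in G2. MG132 replicates 1 and 4 lay above the G2 range and replicates 2 and 3 inside it.

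In the fatty acid branch SCD, the desaturase that makes oleate, led with 1.45 (SE 0.424, adjusted p = 0.0902). SCD was at 1206, 1774, 725 and 1612 CPM with MG132 and at 466, 479.9, 573 and 428 in G2, with no overlap. ACSS2, which makes acetyl-CoA from acetate, had 0.67 (adjusted p = 0.472) and FASN, the synthase of palmitate, 0.52 (adjusted p = 0.558). ACLY, which makes acetyl-CoA from citrate, and ACACA, which makes malonyl-CoA, each had 0.32, the desaturase gene FADS1 0.14 and the elongase gene ELOVL6 0.13. FADS2, the desaturase that begins polyunsaturated synthesis, was the lowest at -0.04, with 17.3, 17.8, 21.5 and 28.99 CPM against 18.8, 26.2, 19.5 and 23.5, so 2 of its MG132 libraries lay below the G2 range, 1 inside it and 1 above.

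Single libraries decided the HSD17B7 call: it was lost without G2 replicate 2 (log2 fold change 1.45, adjusted p = 0.0621), G2 replicate 4 (1.37, 0.0678) or MG132 replicate 2 (1.36, 0.0525). It was also lost without the 4 GC-skewed libraries (1.24, 0.183) and with mitochondrial mRNA scaling (1.22, 0.122). Omitting bortezomib replicate 2 together with the GC-skewed libraries, chosen after seeing the data, lost it too. There HMGCS1 was the 1 member called, against 1.81% of all genes. Over 22 alternatives HSD17B7 was called in 16, with adjusted p-values from 0.000299 to 0.183. Without the GC-skewed libraries the branch medians were 0.33 (sterol) and 0.20 (fatty acid), with mitochondrial mRNA scaling (which moved the median of all genes by -0.26) 0.44 and 0.06, while without MG132 replicate 4 HMGCS1 (2.63, adjusted p = 0.00790, over its alternatives 0.00196 to 0.241) and INSIG1 (2.56, 0.0362, over its alternatives 0.00186 to 0.392) were both called. Within code letter O (2 MG132 and 3 G2 libraries) the median was 0.50 for the sterol and 0.28 for the fatty acid branch, and within letter L (1 library each) 0.83 and 0.52.

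**Figure D3:**
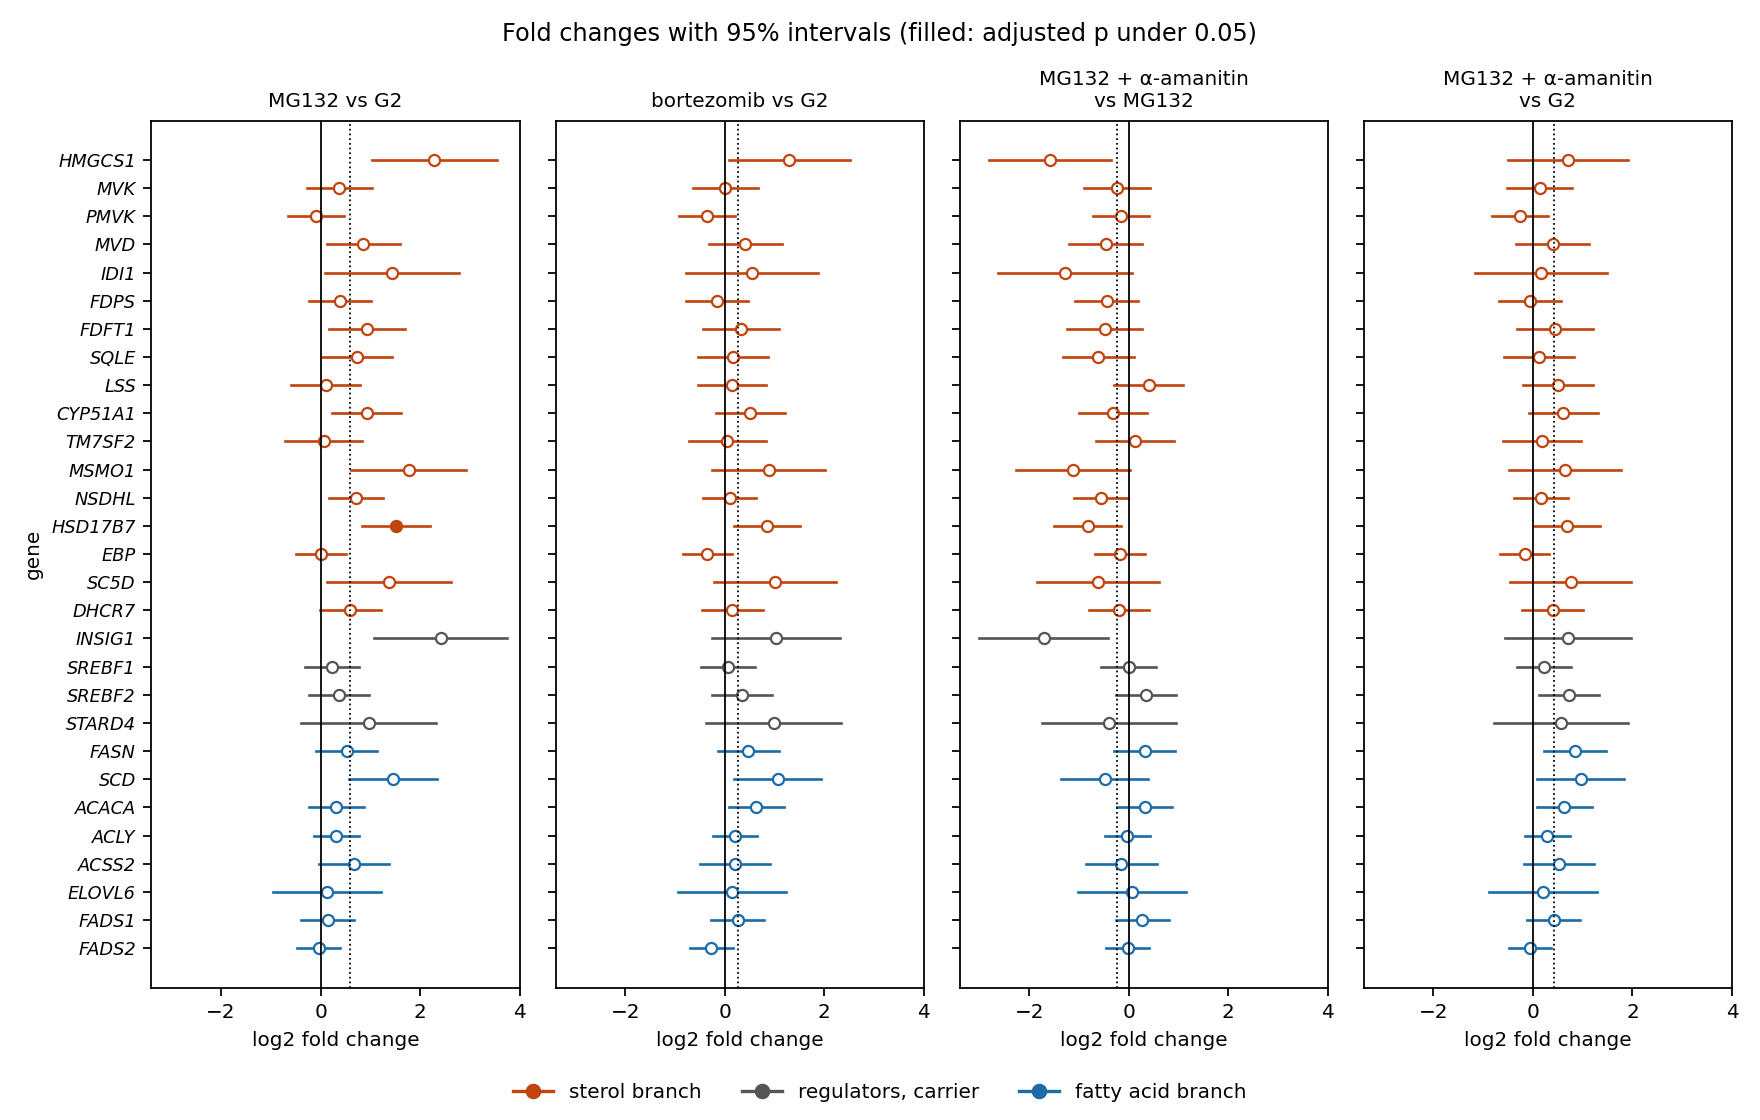
Log2 fold change of each member (point) with its 95% interval (line) in 4 comparisons, coloured by branch; filled points have an adjusted p under 0.05 and the dotted line is the median of the 29 members. HSD17B7 in MG132 against G2 is the 1 filled point, and the medians are 0.60, 0.26, -0.24 and 0.42 from left to right.

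Bortezomib, given for 3 h as MG132 was, was compared with the same G2 libraries, harvested at the 0 h point. None of the 29 members was called by edgeR, against 1.15% of all genes, and 4 had an unadjusted p under 0.05, all higher (HSD17B7, HMGCS1, SCD and ACACA), against 14.5% of all genes in either direction and 5.53% higher. HMGCS1 had the highest log2 fold change, 1.30 (SE 0.585, adjusted p = 0.311), then SCD at 1.06 (adjusted p = 0.241), INSIG1 at 1.03 (adjusted p = 0.456) and SC5D at 1.01 (adjusted p = 0.444). HSD17B7 had 0.85 (adjusted p = 0.217). The lowest were PMVK (-0.35), EBP (-0.35) and FADS2 (-0.27), and SREBF1 was at 0.07. The median was 0.17 for the sterol branch (14 of 17 above 0) and 0.23 for the fatty acid branch (7 of 8 above 0), against -0.01 for all genes, of which 48.7% were above 0.

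Those values rest on bortezomib replicate 2. In that library SCD was at 2412 CPM and in replicates 1, 3 and 4 at 619, 528 and 508 CPM, close to the G2 range of 428 to 573. PMVK was at 9.31 CPM in it and at 6.26, 6.84 and 5.07 in the others, SREBF1 at 107.5 against 62.3, 47.3 and 67.7, and FADS2 at 19.7 against 17.1, 19.0 and 17.3. Relative to the G2 mean the median of the sterol branch was 1.09 in replicate 2 and -0.21, -0.06 and -0.46 in replicates 1, 3 and 4. For the fatty acid branch these were 1.03, -0.02, -0.08 and -0.13. Of the 29 members, 25 were above all 4 G2 libraries in replicate 2, against 26.3% of all genes, and 3 to 5 were in the other replicates.

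Without replicate 2, again 0 members were called, against 0.62% of all genes. The sterol median turned to -0.21 with 5 of 17 above 0, and the fatty acid median to -0.05 with 3 of 8 above 0. HMGCS1 was then at 0.58, SCD at 0.18 and INSIG1 at -0.18. The sterol median was 0.41 without G2 replicate 1, and without bortezomib replicate 1, 3 or 4 it was 0.29, 0.29 or 0.32, with 0.37, 0.35 or 0.37 for the fatty acid branch. Scaling to mitochondrial mRNA also brought the sterol median to -0.01, and within code letter O (1 bortezomib and 3 G2 libraries) it was 0.04, with -0.06 for the fatty acid branch.

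**Figure D4:**
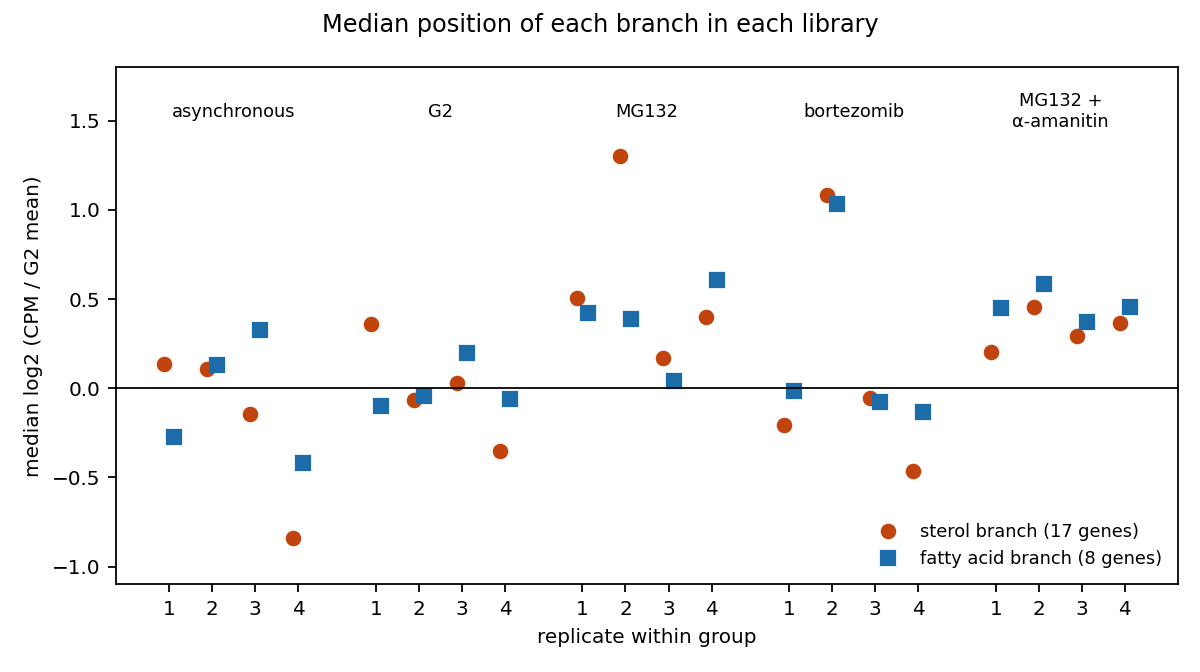
Median over the 17 sterol genes (circles) and the 8 fatty acid genes (squares) of log2 CPM over the G2 mean, in each library (horizontal axis, 4 replicates per group). Bortezomib replicate 2 stands at 1.09 and 1.03 with its fellow replicates at or below 0, MG132 replicate 2 has the branches furthest apart at 1.30 and 0.39, and the 4 α-amanitin libraries are all between 0.20 and 0.58.

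The 2 inhibitors were set against each other at 3 h, at doses that differ (20 µM MG132, 100 nM bortezomib), so the values are given side by side. None of the 29 members was called by edgeR, against 0.0369% of all genes, and 2 had an unadjusted p under 0.05, INSIG1 and NSDHL, against 4.05% of all genes. INSIG1 had a log2 difference of 1.39 (95% interval 0.10 to 2.68, adjusted p = 0.983) and NSDHL 0.62 (0.08 to 1.16). In the sterol branch HMGCS1 was furthest apart at 0.99 (-0.23 to 2.20) and LSS least at -0.04. ACSS2 had 0.47 and ACACA -0.32 at the ends of the fatty acid branch, and STARD4 was at -0.01. ACSS2 was at 46.0, 70.6, 28.5 and 62.8 CPM with MG132 and at 23.4, 76.7, 25.7 and 24.5 with bortezomib. The bortezomib libraries held 46.9, 124, 38.7 and 31.9 CPM of STARD4, and the libraries of the groups overlapped for both genes. ACACA was at 238, 224, 171 and 96.2 CPM with MG132 and at 227, 308, 168 and 209 with bortezomib, and LSS at 44.3, 109, 38.4 and 35.3 with bortezomib, again with overlap. The medians were 0.45 for the sterol and 0.08 for the fatty acid branch, with 24 of 29 members above 0, against 48.3% of all genes. Without MG132 replicate 2 they were 0.22 and 0.21, with HMGCS1 at 0.20 and INSIG1 at 0.79, and without the GC-skewed libraries 0.14 and -0.05. Without bortezomib replicate 2 they were 0.90 and 0.33, with HMGCS1 at 1.71 and INSIG1 at 2.59 (adjusted p = 0.318), and within code letter O (2 MG132 libraries and 1 bortezomib library) 0.49 and 0.40. The fatty acid median was also moved by other single libraries, to 0.00035, near 0, without MG132 replicate 4 and to -0.02 without bortezomib replicate 3.

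The group given MG132 and α-amanitin was compared with MG132 alone, which bears on how far the levels needed RNA polymerase II during the 3 h. None of the 29 members was called by edgeR against MG132 alone, with 2.19% of all genes called, and 4 had an unadjusted p under 0.05, all lower, against 12.5% of all genes in either direction and 5.87% lower. These were INSIG1, at 62.4 ± 15.7 against 204 ± 141 CPM (log2 fold change -1.71 with an SE of 0.623; adjusted p = 0.210), HMGCS1, at 150.0 ± 26.8 against 450 ± 402 CPM (-1.59, SE 0.589, adjusted p = 0.226), HSD17B7, at 16.6 ± 2.31 against 29.5 ± 6.32 CPM (-0.83, SE 0.320, adjusted p = 0.248), and NSDHL (-0.55, adjusted p = 0.385). INSIG1 and HSD17B7 were lower in all 4 α-amanitin libraries than in any MG132 library, 2 of 29 against 4.01% of all genes. Without MG132 replicate 2, INSIG1 was at -1.11 (unadjusted p = 0.0870), HMGCS1 at -0.80 (0.159), HSD17B7 at -0.68 (0.0602) and NSDHL at -0.47 (0.105), so none of the 4 kept an unadjusted p under 0.05 in edgeR.

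The branches had different medians here, -0.46 for the sterol branch with 15 of 17 genes below 0, and 0.02 for the fatty acid branch with 4 of 8 below 0, against 0.02 for all genes, of which 52.2% were above 0. LSS (0.40) and TM7SF2 (0.12) were the sterol genes above 0. LSS was at 74.0, 78.5, 69.2 and 68.9 CPM with α-amanitin, inside the span of the MG132 libraries. In the fatty acid branch FASN had the highest value (0.32), at 1022, 1029, 733 and 844 CPM against 897, 459, 549 and 1001 with MG132 alone, and SCD the lowest (-0.49), at 907, 1092, 874 and 923 CPM. SREBF2 was at 0.34 among the regulators, with 108, 131, 103 and 98.9 CPM against 95.5, 59.0, 70.1 and 123 with MG132 alone. The groups of FASN, SCD and SREBF2 overlapped.

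The sterol median fell short of that value without the GC-skewed libraries (-0.06) and without MG132 replicate 2 (-0.22), and the fatty acid median was -0.13 with mitochondrial mRNA scaling, 0.22 with total library size and -0.07 after an offset for GC and length. Within code letters K, L and O the sterol median was -0.40, -0.83 and -0.11 and the fatty acid median 0.06, 0.27 and 0.09.

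Against G2, which is also the control of the MG132 comparison, MG132 with α-amanitin gave 0 called members by edgeR, with 3.35% of all genes called. An unadjusted p under 0.05 was reached by 5, all higher, against 14.4% of all genes in either direction and 5.82% higher: FASN (log2 fold change 0.84, SE 0.296, adjusted p = 0.148), SCD (0.96, SE 0.419, adjusted p = 0.282), SREBF2 (0.72, SE 0.289, adjusted p = 0.228), ACACA (0.63, adjusted p = 0.257) and HSD17B7 (0.68, adjusted p = 0.336). Each of the 4 α-amanitin libraries was above each G2 library for 10 of 29 members, HMGCS1, MVD, LSS, CYP51A1, DHCR7, SREBF2, FASN, SCD, ACACA and FADS1, against 7.76% of all genes. FASN was at 415, 441, 574 and 594 CPM in G2 and SREBF2 at 62.8, 63.8, 73.9 and 67.0. ACACA was at 213, 264, 218 and 212 CPM with α-amanitin and at 115, 124, 185 and 163 in G2.

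SC5D had the highest value of the sterol branch (0.76, adjusted p = 0.637), at 45.5, 50.7, 40.3 and 28.0 CPM against 28.4, 10.2, 33.2 and 25.6, with overlap. PMVK (-0.25), SREBF1 (0.22) and FADS2 (-0.06) had the lowest of their groups. PMVK was at 5.35, 8.51, 7.63 and 7.93 CPM, SREBF1 at 84.6, 77.5, 62.7 and 91.7 and FADS2 at 18.6, 22.0, 22.3 and 21.6 with α-amanitin, all overlapping G2. The median was 0.39 for the sterol branch and 0.47 for the fatty acid branch, but scaled to mitochondrial mRNA, which moved the median of all genes by -0.41, these were -0.02 and 0.06. Within code letter L (1 library each) the sterol median was -0.00033 and the fatty acid median 0.51, and within letter O (1 α-amanitin and 3 G2 libraries) 0.55 and 0.49. In a fit of these 8 libraries alone 3 members were called, SREBF2 (adjusted p = 0.0297, over 22 alternatives 0.0297 to 0.662), SCD (0.0141, over 22 alternatives 0.0141 to 0.519) and FASN, which was also called after the GC and length offset (0.0370, over 22 alternatives 0.0370 to 0.507). Of all genes, 4.27% were called in that fit and 5.47% after the offset.

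G2 was compared with asynchronous cells to show what synchronisation did. None of the 29 members was called by edgeR, against 2.09% of all genes, and 0 had an unadjusted p under 0.05, against 13.1% of all genes. ACSS2 had the highest log2 fold change (0.70, SE 0.342, adjusted p = 0.395), at 42.4, 31.3, 31.7 and 25.1 CPM in G2 against 22.1, 19.1, 24.7 and 14.3 in asynchronous cells. LSS followed (0.62, adjusted p = 0.463), with 23.5, 44.0, 45.6 and 20.1 CPM in asynchronous cells. Both were higher in every G2 library, 2 of 29 against 5.75% of all genes. PMVK was the lowest (-0.55, adjusted p = 0.399), at 19.0, 10.1, 14.2 and 8.10 CPM in asynchronous cells, then INSIG1 (-0.23) and SCD (-0.21), and STARD4 was the highest regulator (0.28). Asynchronous cells held 559, 736, 671 and 287 CPM of SCD and 29.8, 49.9, 5.95 and 15.3 CPM of STARD4, overlapping G2 in both. The medians were 0.17 for the sterol branch and 0.02 for the fatty acid branch, with 19 of 29 members above 0 against 45.1% of all genes. Within code letter O (3 G2 libraries and 1 asynchronous library) the direction turned, with medians of -0.04 and -0.30 and 10 of 29 above 0, while within letter L (1 library each) they were 0.24 and 0.04 with 20 above 0. The sterol median was -0.04 without G2 replicate 1, 0.01 without asynchronous replicate 4, 0.32 without asynchronous replicate 1 and 0.28 without G2 replicate 4.

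Between the 4 bortezomib replicates the median SD of log2 CPM was 0.65 over the members and 0.19 over all genes. In MG132 these were 0.53 and 0.47, in asynchronous cells 0.54 and 0.43, in G2 both 0.32 and with α-amanitin both 0.18. The all-gene values here leave out genes of low mean CPM and add 0.1 to CPM before log2, while those of the members add nothing. The ratio of the highest to the lowest replicate reached 17.3 in the MG132 group, 8.39 in the asynchronous group, 7.46 in the bortezomib group, 4.93 in G2 and 2.01 with α-amanitin.

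**Figure D5:**
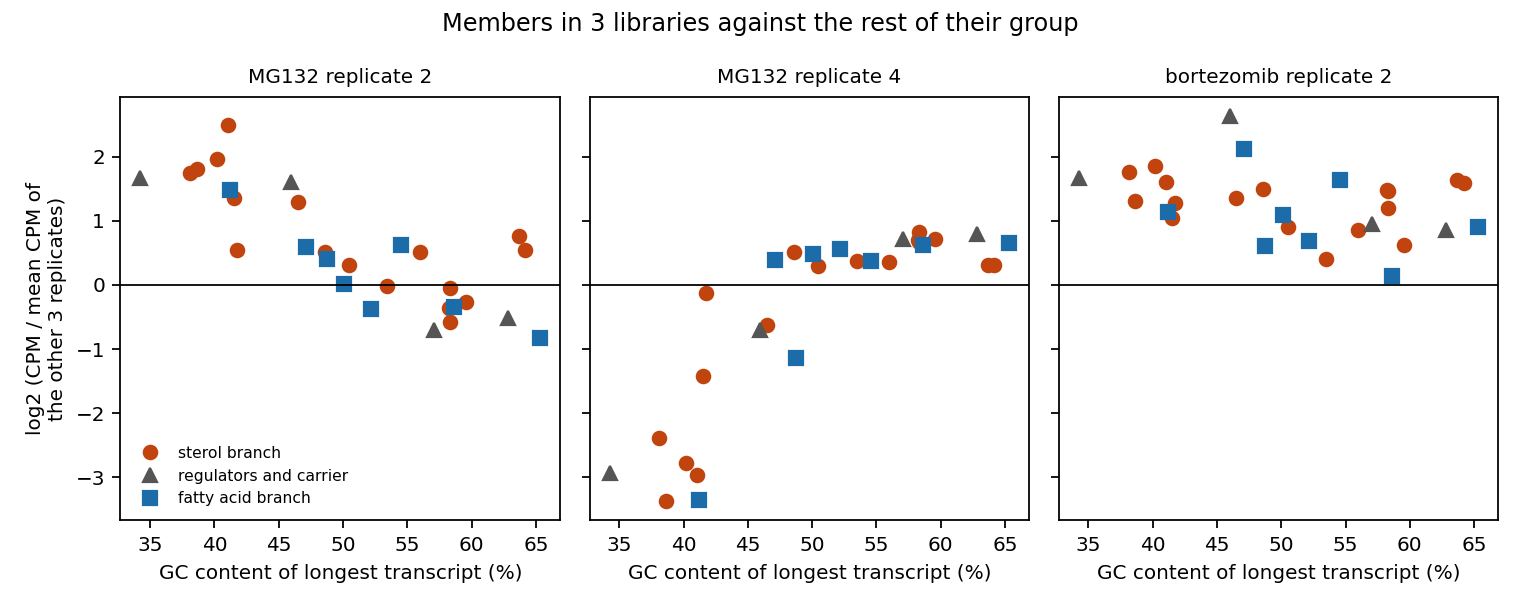
For 3 libraries, log2 of each member's CPM over the mean of the other 3 replicates (vertical axis) against the GC content of its longest transcript in percent (horizontal axis), with a symbol for each branch. The points fall with GC content in MG132 replicate 2 (r = -0.80), rise with it in MG132 replicate 4 (r = 0.82), and lie above 0 for all 29 members in bortezomib replicate 2.

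Levels of different genes were compared per kilobase of exon, in G2. SCD was the highest at 90.8 ± 11.5 CPM per kb (SD, n = 4), next to ACLY at 81.5 ± 7.60, within the spread of both. FASN (54.0 ± 9.70) and FDPS (50.2 ± 21.3) came next and were also within each other's spread, and EBP (25.0 ± 7.34), FDFT1 (22.8 ± 6.48), IDI1 (20.5 ± 12.4), SQLE (19.8 ± 3.72) and HMGCS1 (19.6 ± 7.11) formed a run without separation. The lowest were MVK (3.14 ± 0.441), HSD17B7 (2.17 ± 0.773) and FADS2 (2.00 ± 0.315). MVK and HSD17B7, the lowest of the sterol branch, had overlapping ranges of mean ± SD, as did HSD17B7 and FADS2.

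Members uncalled in every comparison and not listed by library above spanned these ranges over the 20 libraries. Of the first sterol steps, MVK ran from 11.3 to 39.4 CPM, MVD from 30.5 to 161, IDI1 from 24.4 to 630, FDPS from 107 to 314, FDFT1 from 43.1 to 293 and SQLE from 48.9 to 254. Of the later steps, CYP51A1 ran from 40.4 to 170, TM7SF2 from 5.81 to 29.6, MSMO1 from 21.7 to 305, NSDHL from 19.2 to 61.6, EBP from 37.5 to 85.3 and DHCR7 from 39.8 to 135 CPM. In the fatty acid branch ACLY ran from 303 to 700, ELOVL6 from 6.49 to 99.2 and FADS1 from 30.9 to 103 CPM. IDI1 had its lowest level in the GC-skewed asynchronous replicate 3 and its highest in MG132 replicate 2. CYP51A1 shares 2943 exon bases with other genes on its strand, and FADS1, FADS2 and TM7SF2 share 80, 49 and 16. HMGCS1, IDI1, FDPS and LSS overlap antisense genes over 703, 643, 693 and 570 exon bases, SREBF1 over 556, and FADS1 and FADS2 each over 490. Shorter antisense overlaps are those of MVK (306), SREBF2 (280), FDFT1 (217), ACLY (156), CYP51A1 (138) and STARD4 (124). The counts of all these genes are uncertain where the strand setting of the counting is not known. HSD17B7 has no such overlap.

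Other genes of the pathway were taken from 4 lists of 74 genes in all. Of 17 genes for SREBP processing and sterol sensing, all of them tested, 0 were called with MG132 against G2 (median log2 fold change -0.06), where 2.08% of all genes were called. Of 11 tested genes for LXR signalling and sterol export 1 was called, NPC1, the lysosomal cholesterol exporter, which rose from 49.9 ± 3.59 to 97.7 ± 9.46 CPM (4 libraries each; log2 fold change 0.97 with an SE of 0.192; adjusted p = 0.00870). Of 26 other tested lipid synthesis genes 1 was called, the elongase gene ELOVL5, from 56.4 ± 1.35 to 137 ± 78.8 CPM (1.28, SE 0.301, adjusted p = 0.0287), and of 15 other sterol and isoprenoid genes 0 were (median 0.16). Against the mean of the other 3 replicates, ELOVL5 was at 1.25 log2 units in MG132 replicate 2 and -1.66 in MG132 replicate 4. Both libraries are GC-skewed, and the value of ELOVL5 without them is not given here. With α-amanitin against G2, where 3.35% of all genes were called, 3 were called lower: RNF139, a ubiquitin ligase of sterol-regulated degradation (-1.07, adjusted p = 0.0113), and the mitochondrial fatty acid synthesis genes MCAT (-0.81, adjusted p = 0.0497) and OXSM (-1.02, adjusted p = 0.0265). In the other 4 comparisons 0 of these genes were called.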

How the data were processed

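Total RNA of 20 libraries, 5 groups of 4 by the labels, was analysed from 1 table of raw counts that the authors deposited, whole numbers without normalisation over 41092 rows (39918 genes and 1174 repeat subfamilies). Its columns were matched to samples by name, with 0 left out. Libraries were stranded and depleted of ribosomal RNA, per the labels' protocols. The submitters' processing notes name FastQC, cutadapt 1.18, STAR and hg38, without roles. Which tool counted the reads, with which strand setting, and what it did with multi-mapping reads is not given in the sources used here. Symbols, positions, exon lengths and GC content came from GENCODE release 29 on hg38, and promoter windows from RefSeq on GRCh38.p14.

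A single model for genes and repeats was fitted with edgeR 4.0.16 under R 4.3.3 (filterByExpr, TMM, robust glmQLFit and glmQLFTest), all 20 libraries with 1 mean per group and 15 residual degrees of freedom. Adjusted p-values are by Benjamini-Hochberg over the 18959 genes tested, with calls under 0.05. CPM, log2 fold changes, SE and SD were computed here. Intervals are at 95%. No pair of replicates agreed within sampling noise: the closest, G2 replicates 3 and 4, had a chi-square of 9.96 per degree of freedom. The scripts were tested on simulated data.

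The members and lists were chosen with earlier results of these data known. The text gives every library for members called in any comparison and for the highest and lowest of each branch in each comparison, and ranges for the rest, plus the called genes of the other lists. Alternatives were scaling by RLE, by library total or by mitochondrial mRNA, no filter, a strict filter (CPM of 1 in 4 libraries), DESeq2 1.42.0, limma-voom (limma 3.58.1), only the groups compared, genes without repeats, blocks for replicate number and code letter, an offset for GC content and length, omission of the 4 GC-skewed libraries, and leaving out each library. Omitting bortezomib replicate 2 together with the GC-skewed libraries was chosen after seeing the data.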

Additional observations from a re-analysis of the deposited data

Results flagged for a closer look

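Of 145 combinations of a member and a group of 4 libraries, 20 had 1 library set apart from its fellows (Dixon's test at 95%, which flags about 1 in 20 groups by chance), and 18 of the 20 were bortezomib replicate 2, always on the high side. Its levels in the sterol branch were 496.8 CPM for HMGCS1 (104.3 to 163.6 in the other 3 replicates), 39.44 for MVK (11.37 to 15.91), 161.1 for MVD (40.6 to 57.11), 176.5 for SQLE (64.07 to 73.28), 108.7 for LSS (35.27 to 44.35) and 112.8 for CYP51A1 (49.86 to 59.89). Later in that branch it had 29.62 CPM for TM7SF2 (9.395 to 10.14), 166.1 for MSMO1 (43.45 to 52.67), 33.34 for HSD17B7 (12.28 to 14.58), 88.91 for SC5D (30.8 to 38.36) and 124.4 for DHCR7 (49.52 to 61.96).

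Among the regulators that library had 211.3 CPM for INSIG1 (28.32 to 38.4), 134.0 for SREBF2 (66.47 to 72.55) and 124.4 for the carrier gene STARD4 (31.87 to 46.85). In the fatty acid branch it had 2412 CPM for SCD (507.7 to 618.8), 76.67 for ACSS2 (23.38 to 25.75), 87.72 for ELOVL6 (37.28 to 41.8) and 103.4 for FADS1 (47.9 to 49.94). The other flags were SQLE in MG132 replicate 2, at 254.4 CPM (95.97 to 115.1), and ACACA in replicate 2 of MG132 with α-amanitin, at 263.6 CPM (212.2 to 218.0).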

How the results depend on the processing

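In this paragraph brackets hold the share of all genes called under the same setting. Of the 29 members, 1 was called for MG132 against G2 (2.08%). That number was 2 with RLE scaling (1.74%), 0 with mitochondrial mRNA scaling (1.1%) and 5 with DESeq2 (3.41%). It was 3 with a code letter block (1.08%), 7 with the GC and length offset (4.16%) and 0 without the GC-skewed libraries (1.64%). When 1 library was left out it was 0 to 5. It was 0 without G2 replicate 2 (1.12%), G2 replicate 4 (1.26%) or MG132 replicate 2 (1.52%), and 5 without MG132 replicate 4 (3.47%). Over all 5 groups 3 were called (12%). That number was 1 with mitochondrial mRNA scaling (8.96%), 8 with DESeq2 (19.7%) and 8 with the GC offset (22.8%). It was 1 without the GC-skewed libraries (17.3%) and 5 without these and bortezomib replicate 2 (17.8%), an omission chosen after seeing the data. When 1 library was left out it was 2 to 10, with 6 without MG132 replicate 4 (17.5%) and 10 without bortezomib replicate 2 (11.6%).

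Where 0 were called, α-amanitin against G2 gave 3 in a fit of only these groups (4.27% of all genes) and 1 with the GC offset (5.47%). Against MG132 it gave 1 with the code letter block (1.63%) and 1 without bortezomib replicate 2 and the GC-skewed libraries (2.18%). G2 against asynchronous gave 1 without those libraries (5.07%). Bortezomib against G2 and MG132 against bortezomib gave 0 throughout. DESeq2 and limma-voom also called 0 members in each of these 5 comparisons. The cause of these shifts was not tested. Calls over all genes also varied: 395 for MG132 against G2 (86 to 789 over 13 alternatives), 218 for bortezomib against G2 (30 to 621), 7 for MG132 against bortezomib (0 to 19), 415 for α-amanitin against MG132 (189 to 830), 636 against G2 (224 to 1038), 397 for G2 against asynchronous (8 to 1037) and 2281 over all groups (970 to 4318). For MG132 against G2 the calls were 191 higher and 204 lower, but 198 and 132 with RLE scaling, 144 and 333 with total library size and 76 and 132 with mitochondrial mRNA scaling.

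Same-numbered replicates did not pair: of 24 pairs 6 had deviations correlated over 0.1, with a range of -0.61 to 0.61, and 5 matched best with their own number. With a replicate block the members called were 1 for MG132 against G2 (1.36% of all genes), 3 over all groups (8.44%) and 0 in the other comparisons. The member counts were the same without the block. No direction of a called member was reversed in the alternatives run.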

Other observations

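The excess in bortezomib replicate 2 was measured in the other lipid lists too. Of 15 other sterol and isoprenoid genes 1 lay more than 1 log2 unit above the other 3 replicates, MMAB (1.32), an adenosyltransferase gene that shares exon bases with MVK on the opposite strand. Of 26 other lipid synthesis genes 3 did: LPIN1 (1.42), a phosphatidate phosphatase gene, MLXIPL (1.22), which encodes the carbohydrate response factor ChREBP, and DGAT2 (1.09), which makes triglyceride. Of the 17 genes for SREBP processing and sterol sensing 0 did, with a median of -0.08, and of the 11 genes for LXR signalling and sterol export 0 did, with a median of 0.22. These genes were named after their values were seen.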
